A study of Homo sapiens with 33 samples.

Results

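Treatment with retinoic acid for 6 h was set against vehicle in THP-1, a human myeloid cell line derived from a monocytic leukaemia and labelled bone marrow, on 10 of the 33 Affymetrix HG-U133 Plus 2 arrays of the study. The members were chosen by title alone, as the 2 RA 6 h arrays and the 8 control arrays of the time course, and all genes of the array were used. The RA 6 h wells had received 20 nM all-trans-retinoic acid (RA), and the vehicle wells 0.1% ethanol. The fit also held 2 RA 2 h arrays, 3 RA 16 h arrays and 2 RA 40 h arrays, whose wells had received the same dose of RA, given a second time after 16 h in the 40 h wells. Each array came from a separate well of 1 cell line, so p-values measure the spread between wells. The control titles read 0 h, but per the labels' protocols 5 vehicle wells were harvested at 16 h and 3 at 40 h, and none at 6 h. RA and a shorter time in culture therefore cannot be told apart by a vehicle of matched time.

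RA acts through the nuclear receptors RARA, RARB and RARG, which pair with RXR receptors on DNA. Bound RA releases corepressors and recruits coactivators, and the first target genes include enzymes and feedback regulators that lower RA itself. In leukaemic myeloid cells RA is known for driving differentiation along the granulocyte and monocyte path, with a fall in MYC and a gain of surface receptors and of the oxidative burst.

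The pair of receptors binds 2 hexamer half-sites spaced as a direct repeat, and promoters of 3 genes that rose are shown because they differ in these letters. The half-sites searched were the hexamer AGGTCA, its variant AGTTCA, another variant GGGTCA and a last variant GGTTCA, on either strand, and a direct repeat was taken as 2 of them on the same strand with 1, 2 or 5 bases between, so that each repeat also counts as half-sites. BATF2, an AP-1 family transcription factor, was the only gene called higher whose listed promoter held such a repeat, and it was singled out after its values were seen. DHRS3, which reduces retinaldehyde to retinol, and CD1D, a molecule that displays lipid antigens, were among the largest rises. Sequences are from RefSeq on GRCh38.p14 and run from 250 bases before to 50 bases after the first listed start of each gene, at chr11:64990228-64990527 (minus strand), chr1:12618161-12618460 (minus strand, the first of 3 listed starts) and chr1:158179697-158179996 (plus strand, the first of 2). Capitals mark half-sites.
BATF2: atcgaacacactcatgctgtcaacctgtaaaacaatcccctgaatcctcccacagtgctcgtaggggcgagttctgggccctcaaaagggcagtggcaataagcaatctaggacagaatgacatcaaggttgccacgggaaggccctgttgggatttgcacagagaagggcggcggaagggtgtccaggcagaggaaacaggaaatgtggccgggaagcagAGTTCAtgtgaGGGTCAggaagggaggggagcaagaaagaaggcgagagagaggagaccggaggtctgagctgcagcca
DHRS3: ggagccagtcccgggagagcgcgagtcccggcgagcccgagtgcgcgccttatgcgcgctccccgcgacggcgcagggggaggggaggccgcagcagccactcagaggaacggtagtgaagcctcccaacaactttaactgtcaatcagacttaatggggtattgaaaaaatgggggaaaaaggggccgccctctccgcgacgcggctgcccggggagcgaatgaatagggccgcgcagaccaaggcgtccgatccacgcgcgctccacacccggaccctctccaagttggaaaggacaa
CD1D: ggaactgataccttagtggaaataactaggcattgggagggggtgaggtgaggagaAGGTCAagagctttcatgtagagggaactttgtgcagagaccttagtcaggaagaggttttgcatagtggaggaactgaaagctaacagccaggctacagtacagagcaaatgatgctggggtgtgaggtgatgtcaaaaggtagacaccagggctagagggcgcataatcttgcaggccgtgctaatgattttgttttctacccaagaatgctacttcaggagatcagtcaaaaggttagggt
The BATF2 repeat has 5 bases between its half-sites and begins 29 bases before the start. CD1D has 1 half-site, 194 bases before the start, and the DHRS3 window has 0.

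A promoter was listed for 237 of the 300 genes called higher and 135 of the 173 called lower. A half-site stood in 36.1% of the 374 promoters of genes called higher and in 28.0% of the 243 promoters of genes called lower, against 33.4% of 14729 promoters of all genes tested and 38.6% of all 35116 promoters of the table. A direct repeat stood in 1 of 374 (0.267%) and in 1 of 243 (0.412%, CFLAR, named after its value was seen), against 0.251% of the promoters of all genes tested. The half-site share of genes called higher thus lay between those 2 backgrounds. These matches are letters in a window, not binding sites.

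Signals below are in Affymetrix signal units recovered from the deposited log2 values and quantile-normalized over the 17 time-course arrays, on which the array median was 27.7 units. Genes were called where limma gave an adjusted p (Benjamini-Hochberg, over the 12501 genes bright enough to test) under 0.05. After 6 h of RA, 300 genes were higher (2.4% of those tested) and 173 were lower (1.38%) than in vehicle, 3.78% in all. The median change of the genes called higher was 1.01 on the log2 scale and that of the genes called lower was -0.66. At least 2-fold changes were found for 151 genes called higher and 28 called lower, so the larger changes were mostly rises. Both RA 6 h arrays lay above all 8 vehicle arrays for 300 of the 300 genes called higher (6.49% of all genes tested) and below all 8 for 168 of the 173 called lower (5.6% of all).

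**Figure D1:**
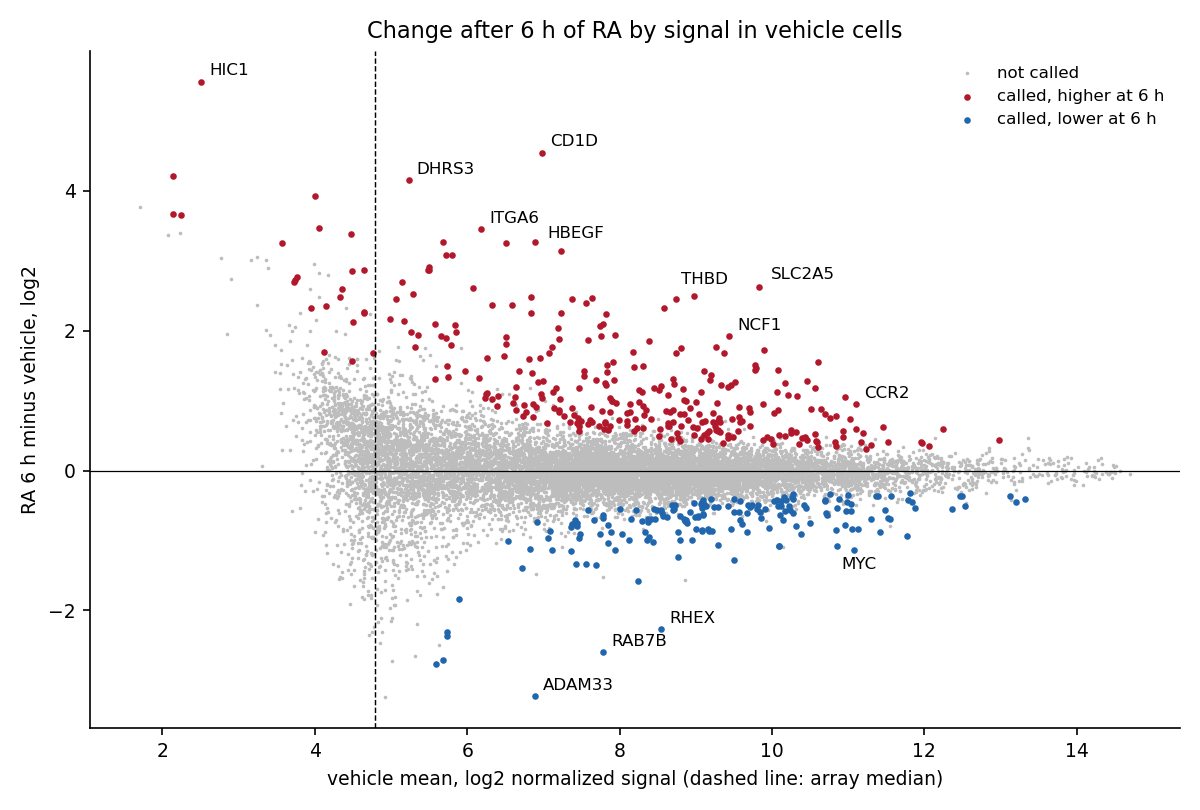
Each point is 1 gene, with its mean log2 normalized signal on the 8 vehicle arrays on the x axis and its log2 difference, RA 6 h minus vehicle, on the y axis. Red points (300 called higher) reach 5.56 at HIC1, blue points (173 called lower) reach -3.23 at ADAM33, and the scatter of grey points widens to the left, near the dashed array median.

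The count leans on both treated arrays. Without RA 6 h replicate 1 it was 196 genes (191 shared with the 473), and without replicate 2 it was 212 (194 shared). Leaving out 1 vehicle array gave 424 to 541 genes. Before normalization the array medians of the recovered signals were 25.6 and 18.9 units on the RA 6 h arrays, against 24.8 to 35.6 units on the vehicle arrays (two-sided exact permutation p = 0.0444, adjusted p = 0.192 over 13 measures, smallest possible p = 0.0222). Probe sets at the lowest value numbered 1469 and 2959 on the RA 6 h arrays, against 168 to 1396 on vehicle arrays (exact p = 0.0222, adjusted p = 0.192). Their part in the result was not tested. With the deposited values, which are centred on those medians, 1026 genes were called higher and 22 lower, and the median of all genes moved by 0.38 on the log2 scale. Of 93 called genes chosen for naming, 68 kept their call with the deposited values, and all those that lost it were falls. Without vehicle 40 h replicate 5, 9 of the 93 missed the threshold (KCNE1, BMPER, ANKS6, CTSG, CFLAR, PSMB10, CASP2, FASN and TXNRD1), and their highest adjusted p without 1 vehicle array was 0.0514 to 0.0758. The changes below are relative to the quantile-normalized median of all genes, -0.001.

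The largest rise was that of HIC1, a zinc-finger transcriptional repressor. Its signal was 239 and 303 units after 6 h of RA, against 1.21 to 24.1, median 8.04, in vehicle cells. All 8 vehicle arrays lay below the array median for this probe set, so its log2 change of 5.56 ± 0.84 (SE, adjusted p = 0.000157) has no firm fold. They also lay below the brightness filter of 24.8 units, which HIC1 passed only through RA arrays. CD1D had 2926 and 2955 units in RA 6 h cells, against 92.3 to 171, median 128, in vehicle cells. The arrays of each group lay close together and the groups were far apart, a 23.3-fold rise (log2 4.54 ± 0.16, adjusted p = 2.87e-14). The log2 change was 4.48 against the 16 h vehicle wells alone and 4.65 against the 40 h vehicle wells alone. DHRS3 had 594 and 746 units after RA, against 8 to 108, median 58.9, in vehicle. Its vehicle arrays were widely spread but all lay below both RA arrays (log2 4.15 ± 0.61, adjusted p = 0.000114).

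ITGA6, an integrin alpha chain that binds laminin, had 775 and 811 units in RA 6 h cells, against 41.2 to 112, median 73, in vehicle cells. It rose 10.9-fold (log2 3.45 ± 0.26, adjusted p = 7.97e-09), and a second probe set gave 3.95. HBEGF, a membrane-bound ligand of the EGF receptor, had 1099.5 and 1176 units after RA, against 85.9 to 157, median 121, in vehicle, with no overlap between the groups. Its rise was 9.60-fold (log2 3.26 ± 0.20, adjusted p = 1.66e-10). PLEKHO1, a pleckstrin homology domain protein, had 559 and 434 units after RA and 14.3 to 95.9 in vehicle (log2 3.26 ± 0.44, adjusted p = 4.12e-05). CD300LB, an activating receptor of myeloid cells, had 204 and 264 units after RA against 8.17 to 50.7 in vehicle (log2 3.38 ± 0.44), and DIPK1A had 168 and 199.8 after RA, against 9.13 to 29.8 in vehicle (log2 3.47 ± 0.40). Vehicle means of both lay under the array median, so only log2 values are given, with adjusted p-values of 2.02e-05 and 3.76e-06. The vehicle mean of DIPK1A also lay below the brightness filter, which DIPK1A passed only through RA arrays.

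**Figure D2:**
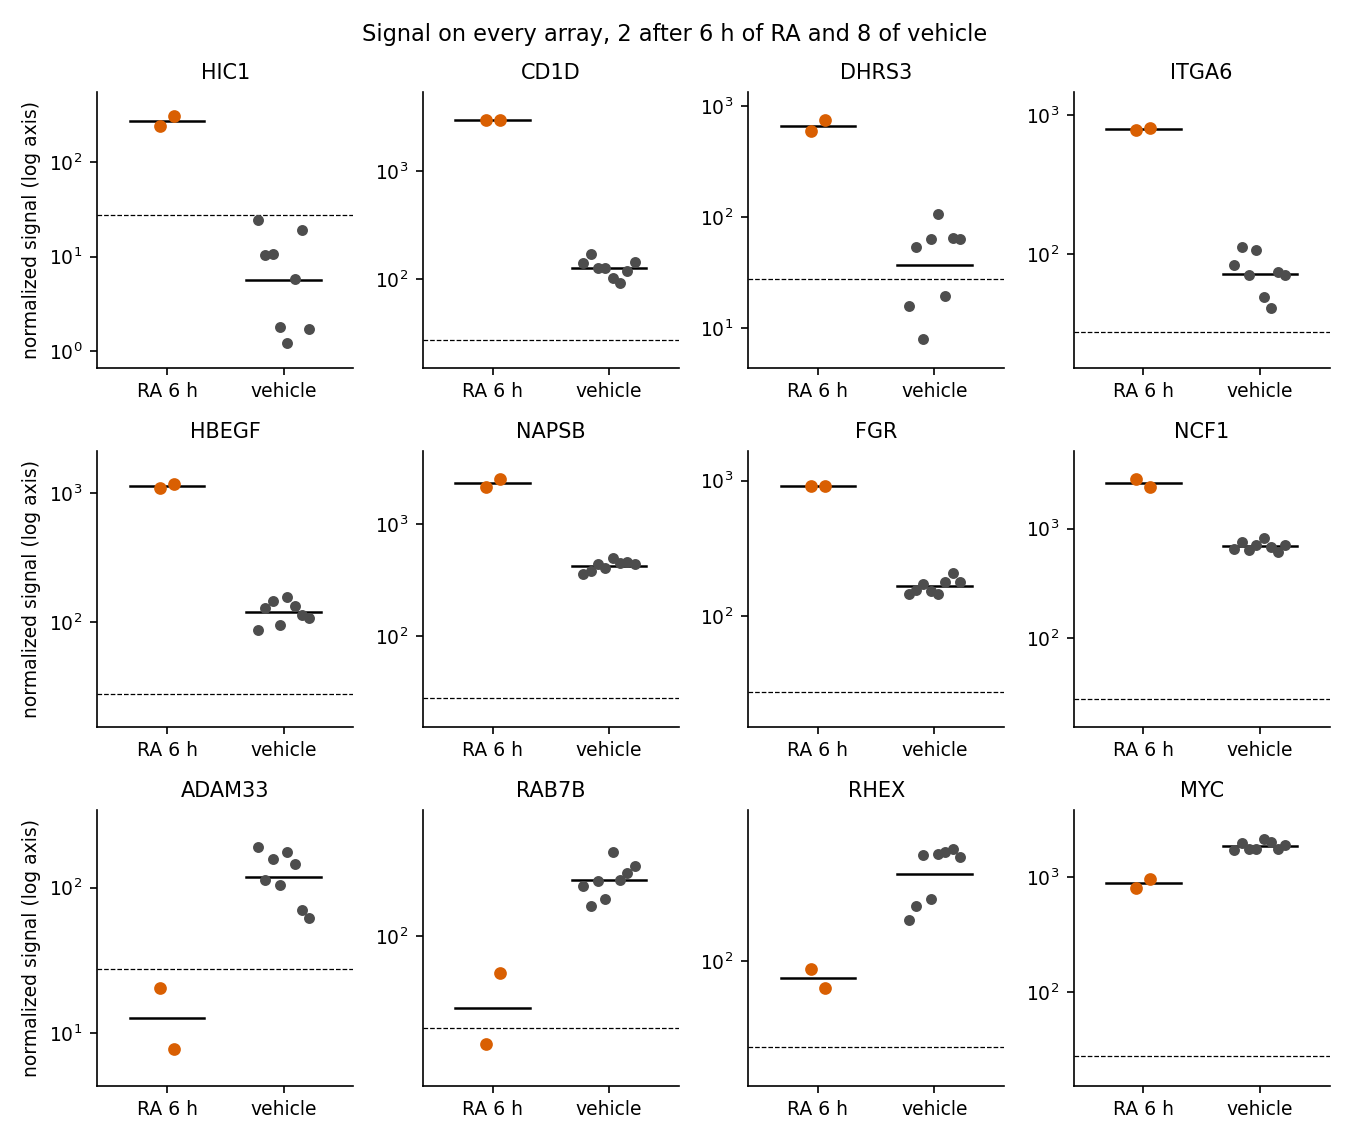
Normalized signal (log axis) of 12 genes on each of the 2 RA 6 h arrays (orange) and the 8 vehicle arrays (grey), with the geometric mean as a bar and the array median dashed. The groups do not overlap in any of the 12 panels, and HIC1 in vehicle and ADAM33 after RA lie under the array median.

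The other 4 of the 12 largest rises lost their call when a treated array was left out. Without RA 6 h replicates 1 and 2 in turn, the log2 changes were 4.20 and 3.60 for STOX2 and 3.56 and 3.72 for NGFR. They were 3.87 and 4.51 for SPATA9 and 3.86 and 3.44 for KCNE1. STOX2 had 198 and 295 units in RA 6 h cells and 1.43 to 43.8 in vehicle cells (log2 3.92 ± 0.76, adjusted p = 0.00271), but adjusted p = 0.114 without RA 6 h replicate 2. NGFR, the p75 neurotrophin receptor, had 63.8 and 56.2 units after RA and 1.61 to 29 in vehicle (log2 3.65 ± 0.91, adjusted p = 0.022), with adjusted p = 0.316 without RA 6 h replicate 1 and 0.247 without replicate 2. SPATA9 had 103 and 64.6 units after RA and 1.06 to 20.6 in vehicle (log2 4.21 ± 1.10, adjusted p = 0.0325), with 0.432 and 0.248 without those replicates. KCNE1, a potassium channel beta subunit, had 48.7 and 64.2 units after RA and 1.91 to 26.5 in vehicle (log2 3.66 ± 1.00, adjusted p = 0.0426), with 0.316 and 0.402 without them and up to 0.056 without 1 vehicle array. The vehicle means of these 4 lay below the array median and below the brightness filter. All 4 thus passed that filter only through RA arrays.

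The 10 genes with the smallest adjusted p among those higher were chosen after the values were seen. They had vehicle means at or above the array median and kept their call without any single RA 6 h or vehicle array. Besides CD1D they included several with known roles. SLC2A5, the fructose transporter GLUT5, had 4547 and 6855 units after RA, against 765 to 1048, median 911, in vehicle (6.15-fold, adjusted p = 7.65e-12). Both RA arrays stood far above vehicle, though they differed from each other. THBD, thrombomodulin, a surface receptor that turns thrombin to an anticoagulant role, had 2785 and 2877 units after RA and 401 to 640.4, median 503, in vehicle (5.63-fold, adjusted p = 8.94e-11). H2AC25, a histone H2A gene, had 1301 and 1359.5 units after RA and 112 to 224, median 148, in vehicle (8.83-fold, adjusted p = 8.94e-11), although a second probe set of it gave a log2 change of 1.10 that was not called. NDRG1, known as a stress- and differentiation-responsive gene, had 1896 and 1924 units after RA and 308 to 481, median 385, in vehicle (4.98-fold, adjusted p = 6.07e-11). NAPSB, an aspartic peptidase-like gene, had 2147 and 2527 units after RA against 359 to 498, median 444, in vehicle (5.45-fold, adjusted p = 7.46e-12).

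BATF2, whose promoter is printed above, had 395 and 271 units in RA 6 h cells, against 16.7 to 82.7, median 50.4, in vehicle cells. The groups did not overlap (log2 2.86 ± 0.36, adjusted p = 1.78e-05), and its signal was 168 and 157 units at 2 h of RA.

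Gene lists here and below were chosen with earlier results of these data known, so their shares are not independent of the data. Of 25 genes of retinoid metabolism and transport with a probe set, 11 were bright enough to test. Of these 1 rose (DHRS3) and 0 fell, against 3.78% of all genes called. The median log2 change was 0.34, against -0.001 over all genes. CYP26A1 and CYP26B1, the cytochromes that oxidize RA, were below the brightness filter. CYP26B1 gave 67.3 and 68.1 units in RA 6 h cells, against 1.06 to 14.6, median 2.24, in vehicle cells, so both RA arrays lay above all 8 vehicle arrays, without a test. CYP26A1 gave 9.02 and 29.4 units after RA and 1.99 to 18.2 in vehicle, and the groups overlapped.

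Of 22 tested receptors and cofactors, 1 rose and 0 fell, near the 3.78% over all genes. The 1 was NRIP1, a corepressor that binds RA receptors when RA is bound, with 954 and 1113 units in RA 6 h cells, against 323 to 540.3, median 419.5, in vehicle cells (2.48-fold, log2 1.31 ± 0.15, adjusted p = 5.73e-06). The receptor RARA had 270.5 and 257 units after RA and 173 to 302 in vehicle, with overlapping groups (log2 0.30 ± 0.18, adjusted p = 0.537). RARG had 47.8 and 39.4 units after RA and 7.88 to 89.2 in vehicle (log2 1.13 ± 0.88, adjusted p = 0.685), and RARB, below the filter, had 43.3 and 7 units after RA and 3.13 to 38.9 in vehicle.

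Genes known to be induced by RA in myeloid cells moved in both directions, 7 higher and 3 lower of 29 tested (2.4% and 1.38% over all genes), with a median log2 change of 0.30. CD38, an ectoenzyme that breaks down NAD, had 1057 and 1127 units in RA 6 h cells, against 132 to 252, median 208, in vehicle cells. It rose 5.50-fold with no overlap (log2 2.46 ± 0.18, adjusted p = 4.85e-09). PRAM1, a myeloid adaptor protein, had 261 and 223 units after RA and 40.7 to 80.5, median 58.7, in vehicle (4.23-fold, adjusted p = 2.75e-05). LTB4R, the leukotriene B4 receptor, had 311 and 306 units after RA and 91.5 to 174, median 129, in vehicle (2.42-fold, adjusted p = 0.000106). TGM2, a protein cross-linking enzyme, had 96.2 and 134 units after RA against 4.06 to 38.9 in vehicle (log2 3.26 ± 0.68, adjusted p = 0.00504). Its vehicle mean lay below the brightness filter, which TGM2 passed only through RA arrays. The log2 change was 3.49 and 2.99 without RA 6 h replicates 1 and 2, and the call was lost when either was left out. No other tested TGM2 probe set was called. HIC1, CD1D and ID1 (log2 1.76 ± 0.44, adjusted p = 0.0228, named after its value was seen, and 0.272 and 0.248 without those replicates) were the other 3 called higher. With either replicate left out the list held 5 called higher and 1 lower.

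**Figure D3:**
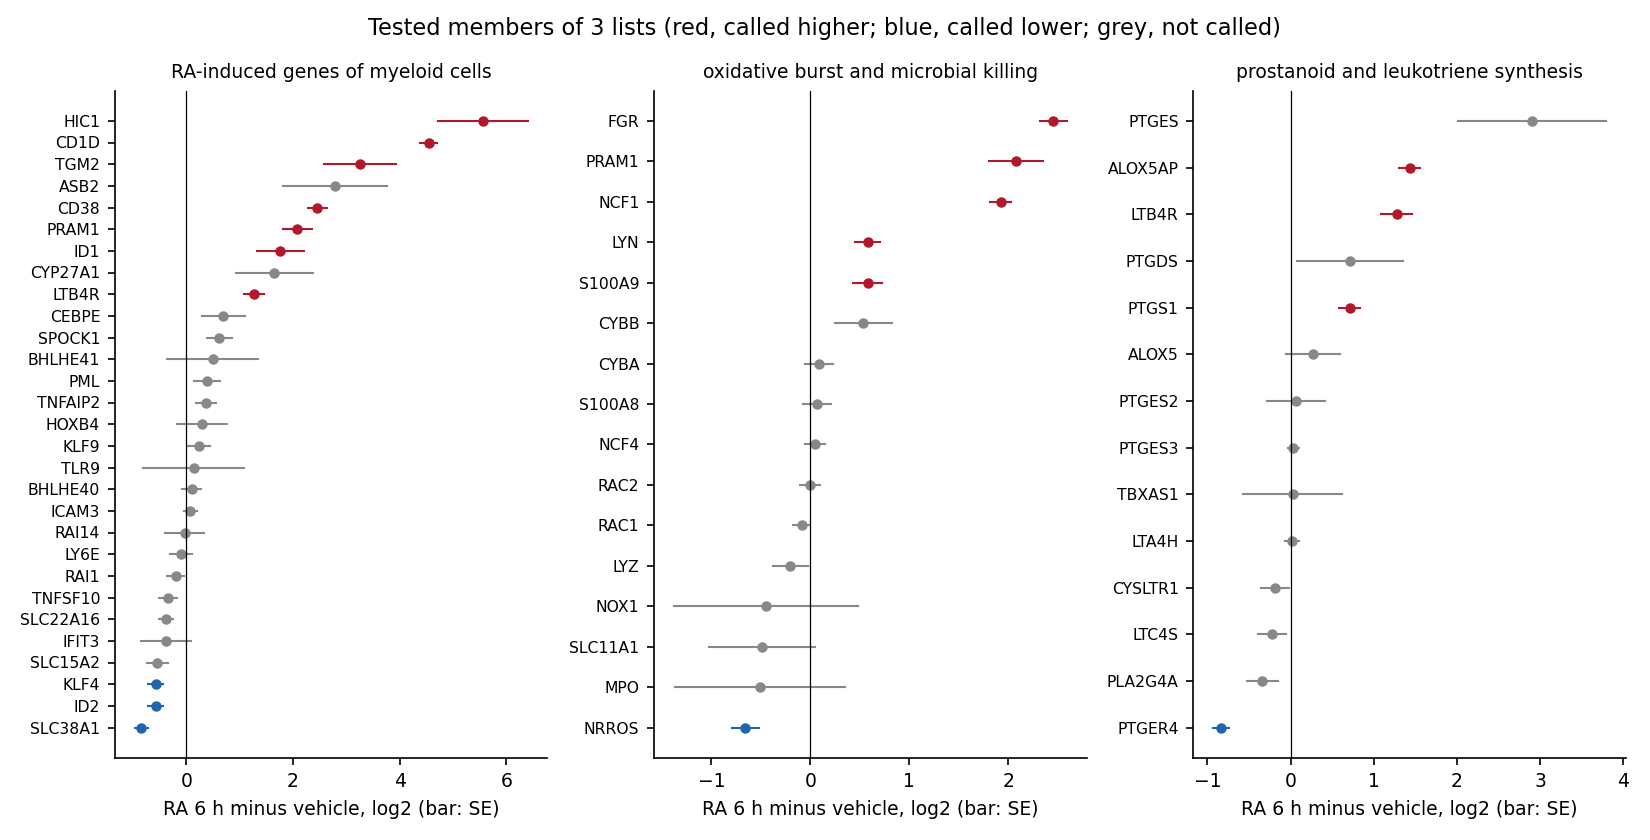
Log2 change, RA 6 h minus vehicle, with its SE, for the tested members of 3 lists, 29 RA-induced genes, 16 genes of the oxidative burst and microbial killing, and 14 genes of prostanoid and leukotriene synthesis. Red genes were called higher (7, 5 and 3), blue genes lower (3, 1 and 1), and dim genes such as HIC1 and PTGES have the longest bars.

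The 3 called lower in that list were SLC38A1, a glutamine transporter, KLF4, a monocyte transcription factor, and ID2, an inhibitor of DNA binding. SLC38A1 had 299 and 341 units in RA 6 h cells, against 474 to 627 in vehicle cells (log2 -0.84 ± 0.13, adjusted p = 0.000185). KLF4 (log2 -0.57 ± 0.14, adjusted p = 0.0174) and ID2 (log2 -0.57 ± 0.14, adjusted p = 0.0225) were lower by less, and without RA 6 h replicate 1 their adjusted p-values were 0.316 and 0.247. A second KLF4 probe set gave 0.06 and was not called. The differentiation markers ITGAM, CD14 and CEBPE were not called. ITGAM, the integrin CD11b, had 542 and 561 units after RA and 370.0 to 553, median 504, in vehicle (log2 0.21 ± 0.14, adjusted p = 0.584), and CD14 had 24.5 and 52.7 units after RA and 25.5 to 70.2 in vehicle (log2 -0.21 ± 0.45, adjusted p = 0.915). CEBPE, a granulocyte transcription factor, had a log2 change of 0.69 ± 0.40 (adjusted p = 0.503).

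Genes of the oxidative burst and microbial killing were called higher in 5 of 16 tested and lower in 1, against 2.4% and 1.38% over all genes, with a median log2 change of 0.06. FGR, a Src family kinase of myeloid cells, had 913 and 919 units in RA 6 h cells, against 147 to 210.3, median 164, in vehicle cells. Its RA arrays were nearly equal and far above vehicle (5.49-fold, log2 2.46 ± 0.14, adjusted p = 6.07e-11). NCF1, the p47phox subunit that assembles the NADPH oxidase, had 2857 and 2423 units after RA and 611 to 817, median 693, in vehicle (3.80-fold, log2 1.93 ± 0.11, adjusted p = 6.07e-11). Near-identical NCF1 copies exist in the genome, and this probe set may read them too. PRAM1 was the third. LYN, another Src family kinase named after its value was seen, had a log2 change of 0.58 ± 0.13 (adjusted p = 0.00821, and 0.274 and 0.0622 without RA 6 h replicates 1 and 2). S100A9, a calcium-binding protein, had 979 and 856 units after RA and 520.1 to 786 in vehicle (log2 0.58 ± 0.15, adjusted p = 0.0258). Its log2 change was 0.48 and 0.68 without RA 6 h replicates 1 and 2, and its call was lost when either was left out. The other oxidase subunits tested, CYBB, CYBA, NCF4, RAC1 and RAC2, were not called. NRROS, a negative regulator of the oxidase, had 251 and 250.4 units after RA and 345 to 485 in vehicle (log2 -0.66 ± 0.14, adjusted p = 0.0048), with adjusted p = 0.112 and 0.105 without those replicates. With either replicate left out the list held 3 called higher and 0 lower, FGR, NCF1 and PRAM1.

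Genes of prostanoid and leukotriene synthesis were called higher in 3 and lower in 1 of 14 tested, where all genes gave 2.4% and 1.38% (median log2 change 0.05). ALOX5AP, the protein that hands arachidonic acid to 5-lipoxygenase, had 3022 and 2829 units in RA 6 h cells, against 918 to 1305, median 1023, in vehicle cells (2.70-fold, log2 1.43 ± 0.13, adjusted p = 1.16e-07). PTGS1, cyclooxygenase 1, had 857 and 962 units after RA and 463 to 672 in vehicle (log2 0.71 ± 0.12, adjusted p = 0.000918), with adjusted p = 0.0787 without RA 6 h replicate 2. PTGER4, the prostaglandin E2 receptor EP4, fell to 1129 and 1244 units after RA, against 1925 to 2379.9, median 2079, in vehicle (log2 -0.84 ± 0.09, adjusted p = 3.13e-06), although its other tested probe set gave 0.43 and was not called. LTB4R is given above. The lipoxygenase ALOX5 itself had a log2 change of 0.27 ± 0.33 (adjusted p = 0.823).

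CCR1, a receptor for CCL3 and CCL5, had 2394 and 2601 units in RA 6 h cells, against 801 to 969, median 879, in vehicle cells (2.84-fold, adjusted p = 1.30e-10), and CCR2, the monocyte receptor for CCL2, had 4087 and 4368 units after RA against 1969.7 to 2379.9, median 2153, in vehicle (1.93-fold, adjusted p = 4.86e-08). Of 20 leukocyte G protein-coupled receptors and regulators tested these were the 2 called higher, and S1PR3 and GPR183 were the 2 called lower, against 2.4% higher and 1.38% lower over all genes (median log2 change 0.22). GPR183, an oxysterol receptor, had 56.2 and 70.5 units after RA and 113 to 207 in vehicle (log2 -1.14 ± 0.28, adjusted p = 0.0223), with adjusted p = 0.4 and 0.125 without RA 6 h replicates 1 and 2. Among 19 cytokines and chemokines tested, CCL2 alone was called (1 higher, 0 lower, against 3.78% over all genes), at 573 and 620.1 units after RA and 95.2 to 326, median 141, in vehicle (4.09-fold, log2 2.03 ± 0.31, adjusted p = 0.000184). IL31RA, a cytokine receptor chain, had 505 and 436 units after RA and 33.8 to 70, median 57.8, in vehicle (8.43-fold, adjusted p = 2.18e-09).

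In the interferon list, 1 of 37 tested genes was called higher and 0 lower, against 2.4% and 1.38% over all genes. The gene was IRF1, a transcription factor, with 618 and 685 units in RA 6 h cells and 165 to 273, median 241, in vehicle cells (2.84-fold, log2 1.51 ± 0.15, adjusted p = 3.70e-07), whereas the list's median log2 change was -0.02. Antigen presentation had 3 of 27 higher and 0 lower, against the same shares (median 0.12), CD1D and 2 smaller changes. NLRC5, an activator of MHC class I genes, had a log2 change of 0.72 ± 0.18 (adjusted p = 0.0238), and the proteasome subunit PSMB10 one of 0.31 ± 0.09 (adjusted p = 0.0486). Neither kept its call without RA 6 h replicate 1 (adjusted p = 0.352 and 0.404) or replicate 2 (adjusted p = 0.182 and 0.33).

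Among 34 immediate-early and AP-1 genes, 2 were called higher and 3 lower, against 2.4% and 1.38% over all genes (median log2 change 0.12). MAFF, a small basic leucine zipper factor, had 221 and 237 units in RA 6 h cells, against 23.6 to 49.9, median 38, in vehicle cells (6.47-fold, adjusted p = 1.57e-07). TRIB1, a pseudokinase that promotes degradation of C/EBP alpha, had 495 and 599 units after RA and 73.9 to 155, median 118, in vehicle (4.75-fold, adjusted p = 2.85e-07). FOSL2, a FOS family protein, fell to 182 and 189 units after RA, against 342 to 501, median 437, in vehicle (2.35-fold lower, log2 -1.23 ± 0.14, adjusted p = 3.24e-06), and 2 of its 4 other tested probe sets were called lower too. ZFP36L2, an RNA-binding protein that destabilizes transcripts, was lower as well (log2 -0.55 ± 0.08, adjusted p = 0.000168), as was FOS (log2 -0.72 ± 0.17, adjusted p = 0.0162, named after its value was seen), whose adjusted p was 0.207 and 0.213 without RA 6 h replicates 1 and 2.

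Of 33 myeloid transcription factors, 3 were called higher and 3 lower, against 2.4% and 1.38% over all genes (median log2 change -0.10), but 0 in all without RA 6 h replicate 1 and 3 without replicate 2. KLF13 had 1345 and 1274 units in RA 6 h cells and 758 to 963 in vehicle cells (log2 0.64 ± 0.12, adjusted p = 0.00123), and CEBPB, a C/EBP factor of macrophages, had 1994 and 1719 units after RA and 1203 to 1612 in vehicle (log2 0.47 ± 0.10, adjusted p = 0.00955). Without RA 6 h replicate 1 their adjusted p-values were 0.071 and 0.389. The third higher was ID1, and the 3 lower were KLF4, ID2 and MYB (log2 -0.36 ± 0.09, adjusted p = 0.0256, named after its value was seen, and 0.745 without replicate 1). The lineage factors SPI1, CEBPA, IRF8 and RUNX3 were not called.

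MYC, a driver of growth and proliferation, fell to 807 and 959.6 units in RA 6 h cells, against 1696 to 2111, median 1813, in vehicle cells. The groups did not overlap (2.11-fold lower, log2 -1.08 ± 0.12, adjusted p = 1.94e-06), and the change was -1.07 against 16 h vehicle wells and -1.09 against 40 h vehicle wells. It was the only member called of 32 tested genes of MYC and ribosome biogenesis, whose median was -0.12. Of 45 cell cycle and replication genes, 0 were called higher and 1 lower, against 3.78% called over all genes (median -0.01). This was CDK6, a G1 kinase, with 1177 and 1325 units after RA against 1846 to 3041 in vehicle (log2 -0.84 ± 0.16, adjusted p = 0.00254, and 0.127 without RA 6 h replicate 1). CDKN1A, the p21 inhibitor, was higher (log2 0.97 ± 0.22, adjusted p = 0.0119, and 0.316 and 0.0832 without RA 6 h replicates 1 and 2), and the MYC antagonist MXI1 was lower (log2 -0.63 ± 0.12, adjusted p = 0.00185, and 0.153 without replicate 1), the 2 calls among 18 genes of cell cycle arrest.

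Apoptosis genes were called in both directions, 2 higher and 3 lower of 32, against 2.4% and 1.38% over all genes (median -0.01). BCL2, which blocks apoptosis, had 510.5 and 524 units in RA 6 h cells, against 832 to 1353, median 1126, in vehicle cells (2.12-fold lower, log2 -1.08 ± 0.16, adjusted p = 8.11e-05), although 2 other tested BCL2 probe sets gave -0.38 and 0.22 and were not called. XIAP, a caspase inhibitor, was higher (830.1 and 723 units after RA against 358 to 580.2 in vehicle, log2 0.81 ± 0.15, adjusted p = 0.00233), 4 of its 5 other probe sets were called higher too, and without RA 6 h replicate 1 its adjusted p was 0.138. CASP9 (log2 0.64 ± 0.15), CASP2 (log2 -0.38 ± 0.10) and CFLAR (log2 -0.67 ± 0.18), an inhibitor of caspase 8 and the only called gene of 22 NF-kB targets, had adjusted p-values of 0.0134, 0.0311 and 0.0368. Of 11 other tested CFLAR probe sets 0 were called and 5 had the opposite sign (-0.56 to 0.61). All 3 lost their call without either RA 6 h replicate (adjusted p from 0.087 to 0.359 for CASP9, 0.299 to 0.309 for CASP2, 0.311 to 0.332 for CFLAR), and with the deposited values CASP2 turned to 0.081 (adjusted p = 0.786).

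**Figure D4:**
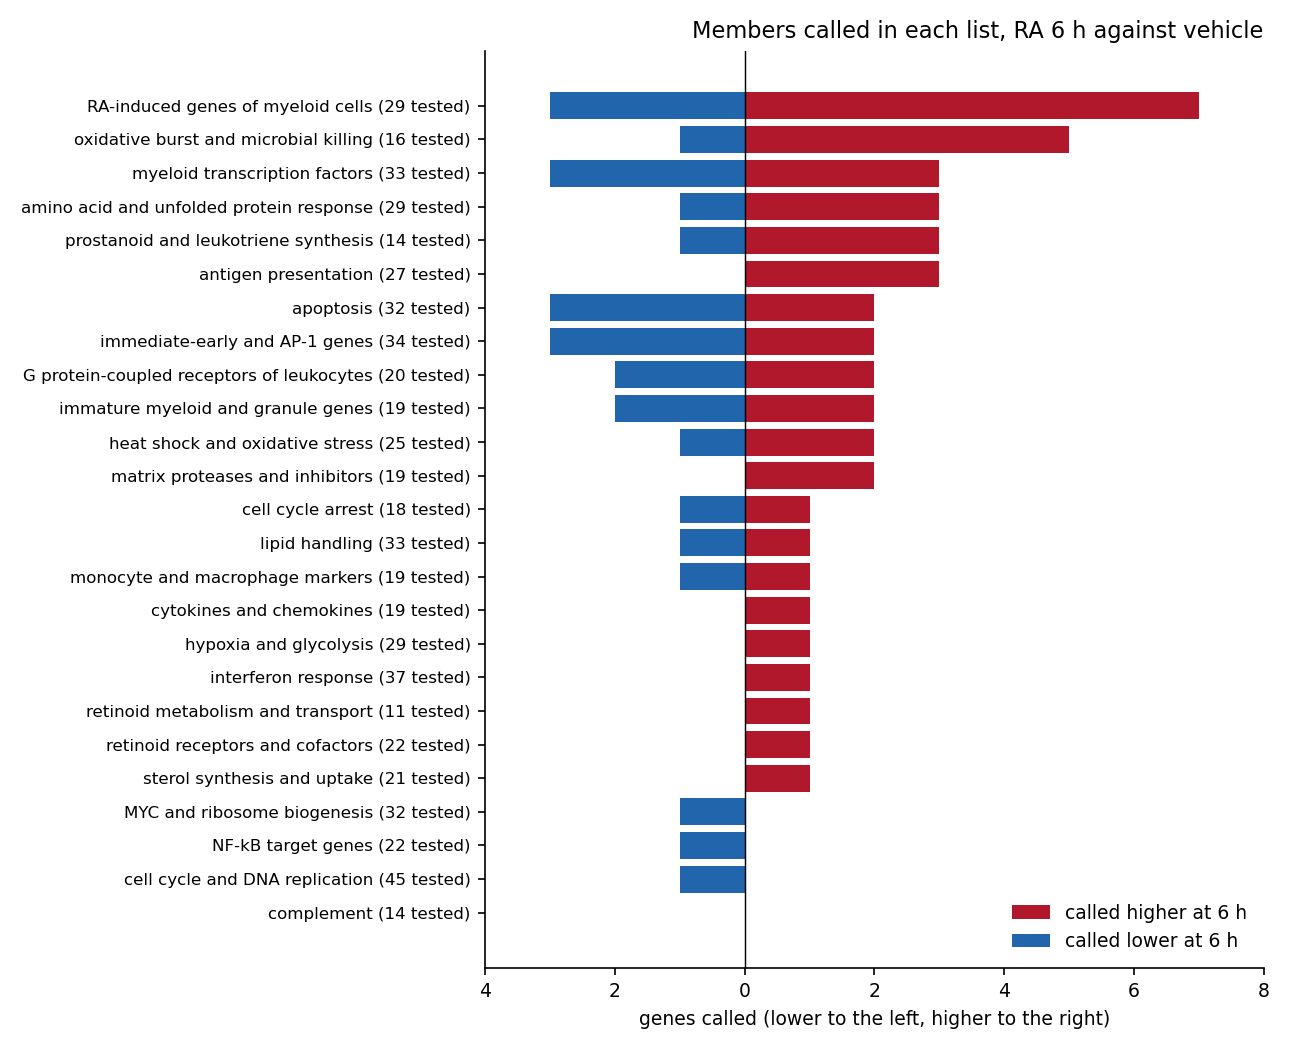
Number of genes called higher (red, to the right) and lower (blue, to the left) in RA 6 h against vehicle for each of 25 lists, with the number tested in brackets. RA-induced genes (7 higher, 3 lower) and the oxidative burst (5 higher, 1 lower) have the most rises, and no complement gene was called. The lists were chosen with earlier results of these data known.

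Among stress genes, DDIT4, an inhibitor of mTORC1, had 829.2 and 954 units in RA 6 h cells, against 158 to 320.4, median 209, in vehicle cells (4.17-fold, adjusted p = 5.11e-08). HERPUD1, a membrane protein of endoplasmic reticulum degradation, had 1919 and 1737 units after RA and 665 to 1120.3, median 983, in vehicle (1.93-fold, adjusted p = 7.96e-05). With CEBPB they were the 3 called higher of 29 genes of the amino acid and unfolded protein response, against 2.4% over all genes. The only one called lower was TRIB3, at log2 -0.49 ± 0.12 (adjusted p = 0.0216, and 0.2 and 0.296 without RA 6 h replicates 1 and 2), and its other tested probe set gave 0.19, not called. In lipid handling 1 of 33 was higher, ACSL1, an acyl-CoA synthetase, with 957 and 904 units after RA and 350.5 to 659, median 462, in vehicle (2.02-fold, adjusted p = 0.000616), and 1 was lower, FASN, fatty acid synthase (log2 -0.59 ± 0.16, adjusted p = 0.0454, and 0.212 and 0.503 without those replicates). NDRG1 was the 1 gene called of 29 for hypoxia and glycolysis. For this list and lipid handling alike, the shares over all genes were 2.4% higher and 1.38% lower.

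Smaller calls that did not outlast the loss of RA 6 h replicate 1 or of replicate 2 were those of AKR1C2 (log2 1.04), TXNRD1 (0.43) and HSPH1 (-0.48) among 25 heat shock and oxidative stress genes, of SQLE (0.39), the squalene epoxidase, among 21 sterol genes, and of MMP2 (1.07) among 19 matrix protease genes. Without replicate 1 their adjusted p-values were 0.264, 0.164, 0.279, 0.13 and 0.135, and without replicate 2 they were 0.149, 0.434, 0.0924, 0.469 and 0.166. The other tested MMP2 probe set gave -1.45 and 3 others of SQLE gave -0.19 to 0.54, none called. PLAUR, the urokinase receptor and the other matrix gene called, had 523 and 585 units in RA 6 h cells and 257 to 378 in vehicle cells (log2 0.79 ± 0.15, adjusted p = 0.0018, and 0.105 without replicate 2). Among 19 immature myeloid and granule genes, FLT3, a cytokine receptor of progenitors, was higher (224 and 322 units after RA against 96.1 to 171 in vehicle, log2 1.10 ± 0.20, adjusted p = 0.00113, and 0.15 without replicate 2), with S100A9. The 2 lower were SERPINB10 (log2 -0.69 ± 0.16, adjusted p = 0.0148) and CTSG, the granule protease cathepsin G (log2 -0.45 ± 0.12, adjusted p = 0.0434), with adjusted p-values of 0.399 and 0.321 without replicate 1. None of 14 complement genes was called at this threshold in limma, with CFP (log2 0.84, adjusted p = 0.0717) the nearest. Over all genes 2.4% were called higher and 1.38% lower. The median log2 changes were 0.07 for heat shock and oxidative stress, -0.13 for sterol genes and 0.16 for matrix proteases. They were -0.20 for immature myeloid and granule genes and 0.47 for complement, against -0.001 over all genes.

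The largest fall was that of ADAM33, a membrane metalloprotease, with 20.4 and 7.84 units in RA 6 h cells, against 61.8 to 189.8, median 129, in vehicle cells. Both RA arrays lay under the array median and under all vehicle arrays (log2 -3.23 ± 0.46, adjusted p = 7.94e-05). RAB7B, a GTPase of late endosomes, had 22 and 59.9 units after RA, against 153 to 327, median 219, in vehicle (log2 -2.60 ± 0.29, adjusted p = 3.61e-06), and its second probe set gave -2.22. RHEX, a regulator of erythroid expansion, had 89.1 and 67.4 units after RA against 187 to 543, median 488, in vehicle (4.81-fold lower, log2 -2.27 ± 0.33, adjusted p = 7.96e-05). MS4A14, a tetraspanning membrane protein, had 86.6 and 75.3 units after RA against 152 to 264, median 212, in vehicle (2.55-fold lower, adjusted p = 0.000319). These 4 kept their call without any single RA 6 h or vehicle array.

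The other 8 of the 12 largest falls each lost the call without 1 of the RA 6 h arrays. S1PR3, a sphingosine 1-phosphate receptor, had 65.9 and 84.4 units in RA 6 h cells and 146 to 234 in vehicle cells (log2 -1.34 ± 0.23, adjusted p = 0.000651), and C3orf80 had 98.7 and 104 after RA and 183 to 463 in vehicle (log2 -1.57 ± 0.29, adjusted p = 0.00171). Their adjusted p-values without RA 6 h replicate 1 were 0.0706 and 0.0646. HRH3, a histamine receptor, BMPER, a BMP-binding protein, and ANKS6 had log2 changes of -2.37 ± 0.60, -2.31 ± 0.60 and -1.39 ± 0.37 (adjusted p = 0.0251, 0.0318 and 0.0335), but -0.48, -0.73 and -0.54 without replicate 1 (adjusted p = 0.968, 0.913 and 0.887). Other tested HRH3 probe sets gave -0.51 and 1.04, not called. For HRH3, BMPER and MIR142 the groups overlapped, with 2.78 and 38.4 units of HRH3 after RA and 34.6 to 89.1 in vehicle, and 3.59 and 32.1 units of BMPER after RA and 31.4 to 78.3 in vehicle. MIR142, read by a probe set annotated to its locus and no measure of the mature miRNA, had 13.2 and 4.65 units after RA and 12 to 97.5 in vehicle. With signals below 16 units raised to that floor, HRH3, BMPER and MIR142 lost their call. LINC01547 (log2 -1.84 ± 0.45) and MIR142 (log2 -2.71 ± 0.63) had adjusted p = 0.784 and 0.415 without replicate 2. LYZL4, a lysozyme-like gene, had a log2 change of -2.76 ± 0.65 and adjusted p = 0.103 and 0.253 without replicates 1 and 2.

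The falls with the smallest adjusted p, again chosen after the values were seen, were mostly smaller in size. RAB27A, a GTPase of secretory granules, had 754 and 670.3 units in RA 6 h cells, against 1272 to 1368, median 1335, in vehicle cells (1.87-fold lower, log2 -0.90 ± 0.08, adjusted p = 1.84e-07), and 4 of 4 other tested probe sets were called lower. MS4A7, a membrane protein of monocytes, had 1013 and 958 units after RA against 1639 to 2459.8, median 2179, in vehicle (2.20-fold lower, adjusted p = 8.03e-07). TLE1, a Groucho family corepressor, had 326 and 270.4 units after RA against 546 to 897, median 795, in vehicle (2.43-fold lower, adjusted p = 4.05e-05). TRIM13, a ubiquitin ligase, fell by 0.83 ± 0.11 on the log2 scale (adjusted p = 2.14e-05). IL17RA, the interleukin 17 receptor, fell by 0.78 ± 0.11 (adjusted p = 5.42e-05). FCGR1BP, an Fc receptor pseudogene, fell by 0.70 ± 0.10 (adjusted p = 5.07e-05), and its reading may include its near-identical parent gene. Other tested probe sets called lower were 2 of 2 for MS4A7, 2 of 3 for TLE1 and 1 of 3 for TRIM13. For IL17RA 0 of 3 were called (log2 -0.43 to -0.37). With the deposited values the log2 differences were -0.44 for RAB27A, -0.37 for PTGER4, -0.38 for TRIM13, -0.30 for IL17RA, -0.24 for FCGR1BP, -0.63 for BCL2, -0.40 for SLC38A1 and -0.43 for MARCKS, with adjusted p-values of 0.0648 to 0.392. The others lost on that scale were ANKS6, KLF4, ID2, ZFP36L2, TLR2, SERPINB10, CTSG, CFLAR, CDK6, MXI1, CASP2, FASN, NRROS, TRIB3, HSPH1, GPR183 and INPP5A.

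Of 19 monocyte and macrophage markers tested, 1 was called higher and 1 lower, against 2.4% and 1.38% over all genes. The lower was TLR2, a receptor for bacterial lipoproteins, with 662 and 648 units after RA and 919 to 1061 in vehicle. Its log2 change was -0.55 ± 0.11 (adjusted p = 0.00244), and -0.57 and -0.54 without RA 6 h replicates 1 and 2. Its call was lost when either was left out.

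Contrasts with the other RA arrays set these changes in time, with the spread estimated over all 17 arrays, vehicle included. Against 2 h of RA, 37 genes were higher at 6 h (0.296% of 12501) and 8 were lower (0.064%), 0.36% in all, and the counts fell to 12 in all without either RA 6 h array and to 6 without RA 2 h replicate 1. FGR had 913 and 919 units at 6 h, against 304 and 332 at 2 h (log2 1.53 ± 0.17, adjusted p = 6.55e-05), and NAPSB had 2147 and 2527 units at 6 h, against 763 and 867 at 2 h (log2 1.52 ± 0.15, adjusted p = 8.19e-06). These were the 2 of the 6 largest rises since 2 h that stayed called without any single RA 6 h or RA 2 h array. NCF1 had 2857 and 2423 units at 6 h and 978 and 1004 at 2 h (log2 1.41 ± 0.13, adjusted p = 8.19e-06), SLC2A5 had 4547 and 6855 at 6 h and 1961 and 2266 at 2 h (log2 1.41 ± 0.16, adjusted p = 6.55e-05), and CD1D had 2926 and 2955 at 6 h and 1209 and 1253 at 2 h (log2 1.26 ± 0.20, adjusted p = 0.0027).

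IL31RA (log2 1.81 ± 0.27, adjusted p = 0.00169), PRAM1 (1.79 ± 0.35, 0.0189), MYBPH, a myosin-binding protein (1.72 ± 0.28, 0.00399), and ITGA6 (1.57 ± 0.33, 0.0358) were also higher at 6 h than at 2 h. Leaving out single RA arrays raised their adjusted p-values to as much as 0.086 for IL31RA, 0.335 for PRAM1, 0.098 for MYBPH and 0.368 for ITGA6. Of the 6 largest falls since 2 h, RAB27A had 754 and 670.3 units at 6 h, against 1239.7 and 1155 at 2 h (log2 -0.75 ± 0.11, adjusted p = 0.000998, up to 0.0566 with an array left out), and ADAM33 had 20.4 and 7.84 at 6 h, against 101 and 102 at 2 h (log2 -3.00 ± 0.58, adjusted p = 0.0189, up to 0.434). MS4A7 (-0.82 ± 0.15), INPP5A, an inositol phosphatase (-0.80 ± 0.17), SLC38A1 (-0.75 ± 0.16) and MARCKS, a protein kinase C substrate (-0.75 ± 0.15), had adjusted p-values of 0.00862, 0.0406, 0.0445 and 0.0301, and each missed the threshold in all 4 fits that left out 1 of these RA arrays.

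**Figure D5:**
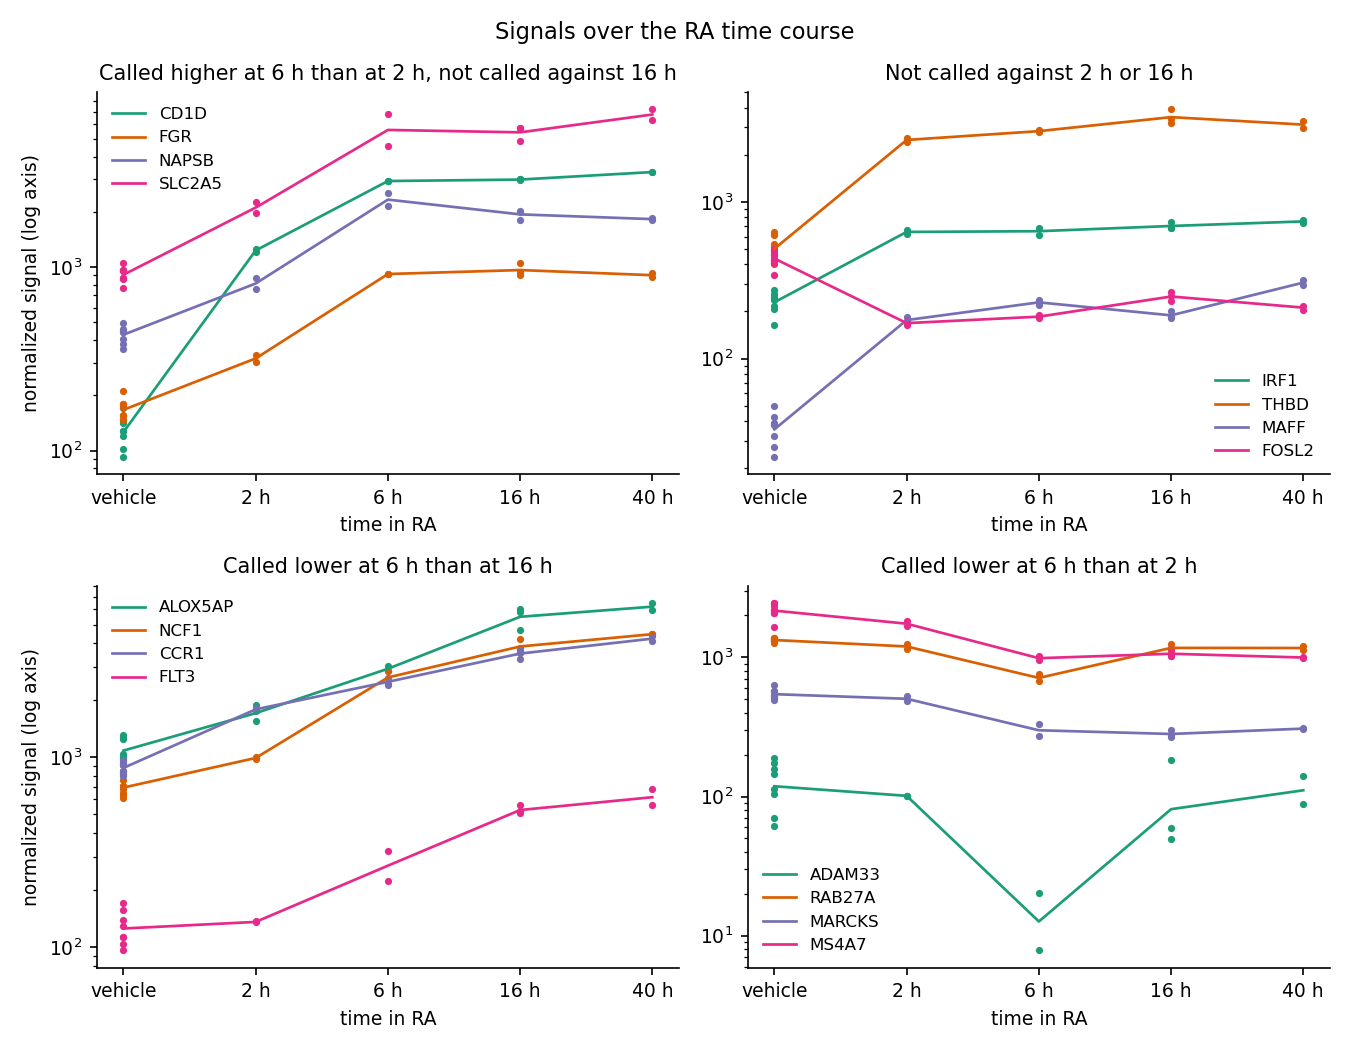
Normalized signal (log axis) on each array in vehicle and after 2 h, 6 h, 16 h and 40 h of RA, with lines through the geometric means. CD1D, FGR, NAPSB and SLC2A5 climb between 2 h and 6 h, IRF1, THBD, MAFF and FOSL2 are near their 6 h signal at 2 h, ALOX5AP, NCF1, CCR1 and FLT3 are higher at 16 h, and ADAM33 and RAB27A are lowest at 6 h.

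Other genes had moved by 2 h and were not called between 2 h and 6 h. IRF1 had 165 to 273 units in vehicle, 659.9 and 628 at 2 h, 618 and 685 at 6 h and 744, 683 and 682 at 16 h, with a difference of 0.01 ± 0.19 between 6 h and 2 h (log2, adjusted p of 1). THBD differed by 0.19 ± 0.18, MAFF by 0.38 ± 0.31, FOSL2 by 0.14 ± 0.17 and MYC by -0.11 ± 0.15, each with an adjusted p that rounds to 1. A p that misses the threshold does not show that these levels were equal.

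Against 16 h of RA, 98 genes were higher at 6 h (0.784%) and 100 lower (0.8%), 1.58% in all, and 16 and 9 in all were called without RA 6 h replicates 1 and 2, of which 15 and 8 were among those 198. ALOX5AP had 3022 and 2829 units at 6 h, against 6053, 5812 and 4706 at 16 h (log2 -0.91 ± 0.15, adjusted p = 0.00399), and ITGAM had 542 and 561 at 6 h, against 1129, 1153 and 1049 at 16 h (log2 -1.01 ± 0.16, adjusted p = 0.00326). TP53INP2, an autophagy regulator, had 106 and 119 units at 6 h, against 350.5, 379 and 391 at 16 h (log2 -1.73 ± 0.25, adjusted p = 0.00152). It stayed called without any single RA 6 h or RA 16 h array. SPOCK1, a secreted proteoglycan (log2 -1.64 ± 0.26, adjusted p = 0.00385), PTPRG, a receptor phosphatase (-1.66 ± 0.29, 0.00698), and BCL2A1, a BCL2 relative that blocks apoptosis (-1.99 ± 0.42, 0.0201), were lower at 6 h than at 16 h too, with adjusted p up to 0.0923, 0.176 and 0.197 when 1 array was left out. ADAM33 (log2 -2.68 ± 0.53) and LINC01547 (-2.55 ± 0.51) were lower at 6 h than at 16 h as well, with adjusted p up to 0.271 and 0.329 without RA 6 h replicate 2. MYC had 807 and 959.6 units at 6 h, against 1635, 1343 and 1249 at 16 h (log2 -0.67 ± 0.14, adjusted p = 0.0161). RAB27A had 754 and 670.3 at 6 h, against 1109, 1161 and 1237 at 16 h (log2 -0.72 ± 0.10, adjusted p = 0.000877). Both were called lower at 6 h than at 16 h in the fit of all arrays. Their values in this contrast with single arrays left out were not examined, nor those of ALOX5AP and ITGAM.

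The largest differences in the other direction were in dim genes. ACOX2, a peroxisomal oxidase, had 98.3 and 88.8 units at 6 h, against 4.47, 7.36 and 25.8 at 16 h (log2 3.30 ± 0.59, adjusted p = 0.00698), and DMRT1 had 32 and 36.2 at 6 h, against 5.42, 5.30 and 5.43 at 16 h (log2 2.66 ± 0.61, adjusted p = 0.0282). PTPN14 (log2 2.74 ± 0.62), USP18 (2.73 ± 0.67) and LOC105377134 (3.11 ± 0.72) had adjusted p-values of 0.0269, 0.0405 and 0.0309. None of these 5 was called between RA 6 h and vehicle, and all 5 missed the threshold without either RA 6 h array, with adjusted p up to 0.109 for ACOX2 and 0.257 to 0.339 for the others. Of the 45 cell cycle genes, 8 were higher at 6 h than at 16 h and 0 lower, against 0.784% and 0.8% over all genes. Most of these calls were lost when either RA 6 h array was left out. CCNE2, a cyclin of S phase entry named after its value was seen, was higher by 0.87 ± 0.12 on the log2 scale (adjusted p = 0.000877). With any 1 RA 6 h or RA 16 h array left out its change was 0.86 to 0.87 and stayed called. It was not called against vehicle (log2 0.28 ± 0.10, adjusted p = 0.201).

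No gene was called between the harvest times of the vehicle wells. Between the 5 vehicle wells of 16 h and the 3 of 40 h, 0 of 12501 genes (0%) were called in limma, with 1079 at an unadjusted p under 0.05, the smallest adjusted p being 0.0705 for CD80, a costimulatory ligand (log2 2.73 ± 0.45). UBXN11 (1.98 ± 0.38, adjusted p = 0.235) came next, and TUBA1A, a tubulin, led the genes lower at 16 h (-0.49 ± 0.10, adjusted p = 0.377). Without vehicle 16 h replicate 3 the count was 11, and without replicate 5 it was 2. RA 6 h against the 16 h wells alone gave 376 called genes, and against the 40 h wells alone 755, so the choice of vehicle moved the count by over 1.5 times.

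Of the markers of other cell types, 0 of 7 tested for lymphocytes, 0 of 9 for erythroid cells and megakaryocytes and 0 of 7 for epithelial cells and fibroblasts were called in limma, too few to set apart from the 3.78% over all genes. The summed signal of 21 lymphocyte markers was 712 and 754 units in RA 6 h cells, against 571 to 889 units in vehicle cells, and 17 of the 21 lay below the array median. For 15 erythroid and megakaryocyte markers, of which the transferrin receptor TFRC was the brightest, the sums were 3758 and 3920 units after RA, below the 4178 to 5061 units in vehicle, 10 of the 15 lay below the array median, and TFRC had a log2 change of -0.28 ± 0.09 (adjusted p = 0.107). Its part in the results was not tested. For 19 epithelial and fibroblast markers they were 2335 and 2428 units after RA, against 2256 to 2572 units in vehicle, and 13 of the 19 lay below the array median. PECAM1, with a mean of 1935 units, made up most of these sums, and COL1A1 came next at 81.6 units. ITGB2 and LYZ were the brightest of 27 monocyte and macrophage markers, while 10 of the 27 averaged below the array median. Fewer cells of a kind and less RNA per cell cannot be told apart on these arrays.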

How the data were processed

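Biotin-labelled RNA of THP-1 wells was read on Affymetrix HG-U133 Plus 2 arrays, and the authors deposited log2 values of GCOS signal relative to each array's median, per the labels. The sources used here give no GCOS version. Taking 2 to the power of each value minus its array's lowest recovered signals in multiples of 0.1 units (largest distance 0.0047), with a 2% trimmed mean of 150 to 150.1 on every array. The log2 signals of 54613 probe sets (62 controls left out) on the 17 time-course arrays were quantile-normalized. Gene names came from the platform annotation, with 41091 probe sets of 1 symbol, 1801 of several and 11721 of none, and 41037 matched the current gene table. The brightest probe set stood for each of 19775 genes. The 12501 with a mean signal over all 17 arrays of at least 24.8 units, the median of all probe sets, were tested. Genes dim in vehicle, such as HIC1, SPATA9, STOX2, KCNE1, NGFR, DIPK1A and TGM2, passed this filter only through RA arrays, where they were high. Of the 300 genes called higher, 23 had a vehicle mean below the array median. Limma 3.58.1 in R 4.3.3 was used (lmFit, eBayes with intensity trend, 12 residual degrees of freedom, levels vehicle and RA 2 h, 6 h, 16 h and 40 h). Data were simulated with independent normal noise of the same spread in every group. They held no difference in array medians or floor values between RA 6 h and vehicle. There, 74% and 82% of 50 genes raised by 1 and 2 log2 units were called in RA 6 h minus vehicle over 12461 genes. Of the tested genes lowered by as much, 69.4% and 84.8% were called, and 8 of 159 calls were false. These shares hold for that setting and not for the real arrays.

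Named genes are the 12 largest called rises and falls, a fixed panel, up to 4 called members per list, by adjusted p, and the 6 largest called changes each way between RA 6 h and RA 2 h or RA 16 h. The 10 smallest adjusted p each way were added later. Of all genes chosen for naming, 2 are not reported here. The members and all gene lists were chosen with earlier results of these data known. Of 869 list entries, 793 had a probe set. Alternatives changed the normalization, the filter, the floor, the probe set rule, the spread model, the vehicle arrays and the replicate block. Each array of the 2 groups compared was also left out in turn.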

Additional observations from a re-analysis of the deposited data

Results flagged for a closer look

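Vehicle signals of 7 genes each stood apart from those of the other vehicle arrays by Dixon's criterion for 8 values, of 107 named genes screened. Chance gives such a value in about 1 in 20 groups. STOX2 had 1.43 units in vehicle 40 h replicate 6, and PTPN14 had 21.4 units in vehicle 40 h replicate 4. NGFR had 29 units and INPP5A had 653 units in vehicle 16 h replicate 4. TLR2 had 1061 units in vehicle 16 h replicate 2, IL31RA 33.8 units in vehicle 16 h replicate 1, and MS4A7 1639 units in vehicle 16 h replicate 5. STOX2, NGFR, TLR2, IL31RA, MS4A7 and INPP5A were called between RA 6 h and vehicle, and each kept its call with any 1 vehicle array left out.

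Of the 6 largest called changes each way between RA 6 h and RA 2 h or RA 16 h, 23 are given here, each a contrast of RA groups in the limma fit, whose spread also rests on the vehicle arrays. The genes higher at 6 h than at 2 h differed by 1.81 (IL31RA), 1.79 (PRAM1), 1.72 (MYBPH), 1.57 (ITGA6), 1.53 (FGR) and 1.52 (NAPSB) on the log2 scale. Those lower at 6 h than at 2 h differed by -3 (ADAM33), -0.82 (MS4A7), -0.8 (INPP5A) and, for each of SLC38A1, MARCKS and RAB27A, -0.75. At 6 h ACOX2 (3.3), LOC105377134 (3.11), PTPN14 (2.74), USP18 (2.73) and DMRT1 (2.66) were higher than at 16 h. ADAM33 (-2.68), LINC01547 (-2.55), BCL2A1 (-1.99), TP53INP2 (-1.73), PTPRG (-1.66) and SPOCK1 (-1.64) were lower at 6 h than at 16 h. FGR, NAPSB and TP53INP2 alone among these kept their call without any single array of the 2 RA groups compared.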

How the results depend on the processing

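Of the 93 genes chosen for naming and called between RA 6 h and vehicle, 40 kept their call and direction under every alternative, 43 lost the call without at least 1 of the 2 RA 6 h arrays, and 9 without at least 1 vehicle array. The count of 473 genes became 1048 (1026 higher, 22 lower, 316 shared) with the deposited values centred on array medians, 980 with array weights, 755 against vehicle harvested at 40 h alone, and 196 to 541 when 1 array was left out. Recovered signals, cyclic loess, other filters, a raised floor, all probe sets, no intensity trend, only the 10 arrays compared, and vehicle harvested at 16 h alone gave 348 to 637. Between RA 6 h and RA 2 h, 45 genes became 15 with the deposited values, 17 with no intensity trend, 201 with array weights, and 6 to 17 with 1 array left out. Between RA 6 h and RA 16 h, 198 became 3336 (3309 higher, 27 lower), 84 and 558 under those same settings and 9 to 134 with 1 array left out. Vehicle 16 h against vehicle 40 h gave 0 to 11. CASP2 turned to 0.081 with the deposited values (adjusted p = 0.786). The labels do not say whether replicate numbers pair arrays. Deviations of same-numbered RA 6 h and vehicle 16 h arrays correlated at 0.009 and 0.061. This cannot decide the question, since the 2 RA 6 h arrays deviate from their own mean by equal and opposite amounts. With the replicate block the count against vehicle was 273 and that against RA 16 h was 116. The cause of these moves was not tested. With 2 treated arrays, changes of genes near the array median have wide errors.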
